A study of Mus musculus domesticus and Mus musculus domesticus x Mus musculus castaneus and Mus musculus castaneus with 27 samples.

Results

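Potassium channel genes were described in motor neurons (MN) differentiated from mouse pluripotent stem cells and in the undifferentiated stem cells (PSC). The genes are all 78 protein-coding genes of the deposited table whose symbol is Kcn followed by 1 letter and a number, of 27071 gene identifiers in all. Beside the voltage-gated families (Kcna to Kcnd, Kcnh, Kcnq and the silent or accessory subunits Kcne, Kcnf, Kcng, Kcns and Kcnv) and the leak channels (Kcnk), this rule takes in inward rectifiers (Kcnj), calcium-activated SK channels (Kcnn) and the sodium- or pH-gated Kcnt and Kcnu. Kcnc2 and Kcnk4 were not analysed here. The MN libraries came from CAST/EiJ (CAST, 1 library), 129S6/SvEv (129, 2 libraries), hybrids of CAST and 129 labelled CAS129 (3 libraries) and 129CAS (1 library), and C57BL/6 (BL6, 7 libraries). The PSC libraries came from CAST, CAS129 and BL6 (2 each). No drug treatment or age of culture is given for these 20 libraries, and the labels do not say which hybrid parent was the mother. RNA of MN and PSC was extracted with different kits, so the part of the kit and that of the cell type cannot be told apart.

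Potassium channels let potassium leave the cell and hold or restore its negative resting voltage. Voltage-gated channels are tetramers of subunits with 1 pore loop each, and open when the membrane depolarises, which ends the action potential and sets firing rate. Leak channels of the Kcnk (K2P) family are dimers whose subunits carry a tandem of pore loops and conduct at rest. In motor neurons, TASK leak channels (Kcnk3, Kcnk9) set excitability, and Kcnq channels carry the M-current, a brake on repetitive firing. Kcnk9 encodes TASK-3 and belongs to an imprinted cluster, where it is expressed mainly from the maternal allele in mouse brain.

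The pore signature is printed for some of the members on which the results turn. In the genes shown it occurs 2 times in each leak channel gene, whose subunits have more than 1 pore loop. It occurs 1 time in each voltage-gated or inward rectifier gene shown. Coding sequences of GENCODE M21 transcripts (GRCm38) were searched in frame, on the coding strand, for a 15-base pattern of 5 successive codons: a codon that starts with AC, a codon with T in the middle, a codon that starts with GG, a codon that starts with T and again a codon that starts with GG, all other bases being free. It was found in 61 of 78 members (78.2%) and in 188 of 21630 protein-coding genes (0.869%). It occurred more than once in 10 members, all of them Kcnk genes, and in 12 of all genes (0.0555%). Each sequence is written 5′ to 3′, the match in capitals with 15 bases on either side; 1 and 2 mark the order along the coding sequence.
Kcnk9 1: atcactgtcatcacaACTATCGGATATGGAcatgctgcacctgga
Kcnk9 2: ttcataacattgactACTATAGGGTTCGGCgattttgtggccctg
Kcnk3 1: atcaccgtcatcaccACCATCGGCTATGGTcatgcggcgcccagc
Kcnk3 2: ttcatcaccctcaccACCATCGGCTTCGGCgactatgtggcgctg
Kcnk10 1: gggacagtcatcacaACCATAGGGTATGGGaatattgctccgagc
Kcnk10 2: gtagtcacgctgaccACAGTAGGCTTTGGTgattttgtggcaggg
Kcnk5 1: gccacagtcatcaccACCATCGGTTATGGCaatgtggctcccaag
Kcnk5 2: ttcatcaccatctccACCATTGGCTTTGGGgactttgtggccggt
Kcna2: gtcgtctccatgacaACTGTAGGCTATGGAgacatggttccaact
Kcnc1: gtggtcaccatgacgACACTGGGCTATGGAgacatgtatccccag
Kcnj3: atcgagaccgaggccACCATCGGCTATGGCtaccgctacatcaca
None of the 4 Kcne genes, which encode single-pass accessory subunits with no pore of their own, held the pattern. Of 8 Kcnh genes 1 held it, Kcnk6 held it 1 time, and Kcnk1 and Kcnk7 held none. A missing match says only that these letters are not there.

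MN libraries held 5.61 M to 44.57 M counts each, and PSC libraries 4.5 M to 13.62 M. Levels below are CPM (counts per M) scaled with TMM factors, and levels of different genes are compared only per kb of annotated exons. Summed motor neuron markers reached 218 to 1600 CPM in MN groups and 3.45 to 34.6 CPM in PSC groups, and summed pluripotency markers 7.19 to 916 CPM in MN and 3570 to 4870 CPM in PSC. The MN cultures also held mesenchyme and fibroblast markers at 2340 to 24000 CPM, and smooth and heart muscle markers at 3200 to 18500 CPM. The heart muscle markers Actc1, Tnnt2, Myh6 and Myh7 each averaged at most 29.2 CPM in any MN group. The 7 markers of other spinal neurons summed to 25.7 to 520 CPM in MN, and glial markers to 20.8 to 321 CPM. In such bulk samples, fewer cells of a type and less RNA per cell cannot be told apart. In all 6 hybrid libraries, 246 of the 6231 genes that reached 20 CPM in each other MN library (3.95%), among them Actg1, had a count of exactly 0; no potassium channel gene was among them, and no gene met the same test in the 3 CAST libraries. Whether potassium channel genes lost part of their counts in the hybrid libraries was not tested, so each value of CAS129 or 129CAS set against another genotype carries that doubt. It is not known whether counting used the strand, and 21 members share exon bases with a gene on the opposite strand, among them Kcna6, Kcnd3, Kcnh7, Kcnj3, Kcnj13, Kcnj15, Kcnk1, Kcnk2, Kcnk3, Kcnq5 and Kcnt2, whose values are uncertain to that degree.

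MN carried a broad set of neuronal potassium channels that were near 0 in PSC, while a few leak channels were the highest members per kb in PSC. Over BL6, CAST and CAS129 (11 MN and 6 PSC libraries), 65 of the 78 genes passed the filter of 1 CPM in at least 2 libraries. Of these, 40 were higher and 15 lower in MN by the quasi-likelihood test of edgeR at a Benjamini-Hochberg adjusted p under 0.05, and 10 were not called. The called share was 84.6%, against 74.6% of all 15596 genes tested; 61.5% were higher, against 36.1% of all genes, and 23.1% lower, against 38.5%. The median log2 fold change was 1.8 for the 65 genes and -0.05 for all genes tested. The 13 genes not tested, all low in every group, were Kcna5, Kcna10, Kcne1, Kcne2, Kcne3, Kcnj1, Kcnj16, Kcnk7, Kcnk15, Kcnk16, Kcnk18, Kcnq1 and Kcnv2. Per kb of exons, the summed level of all 78 genes averaged 125 ± 54.3 CPM in MN (SD, n = 14, with 129 and 129CAS) and 81.6 ± 6.04 CPM in PSC (SD, n = 6). The direction differed between genotypes. The sum was higher in MN in BL6 (124 ± 56.6 CPM in MN, 83.1 ± 2.52 CPM in PSC) and CAST (191 CPM in MN, 79.4 ± 7.33 CPM in PSC). In CAS129 it was lower in MN, at 70.5 ± 6.03 CPM, than in PSC, at 82.2 ± 10.4 CPM.

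**Figure D1:**
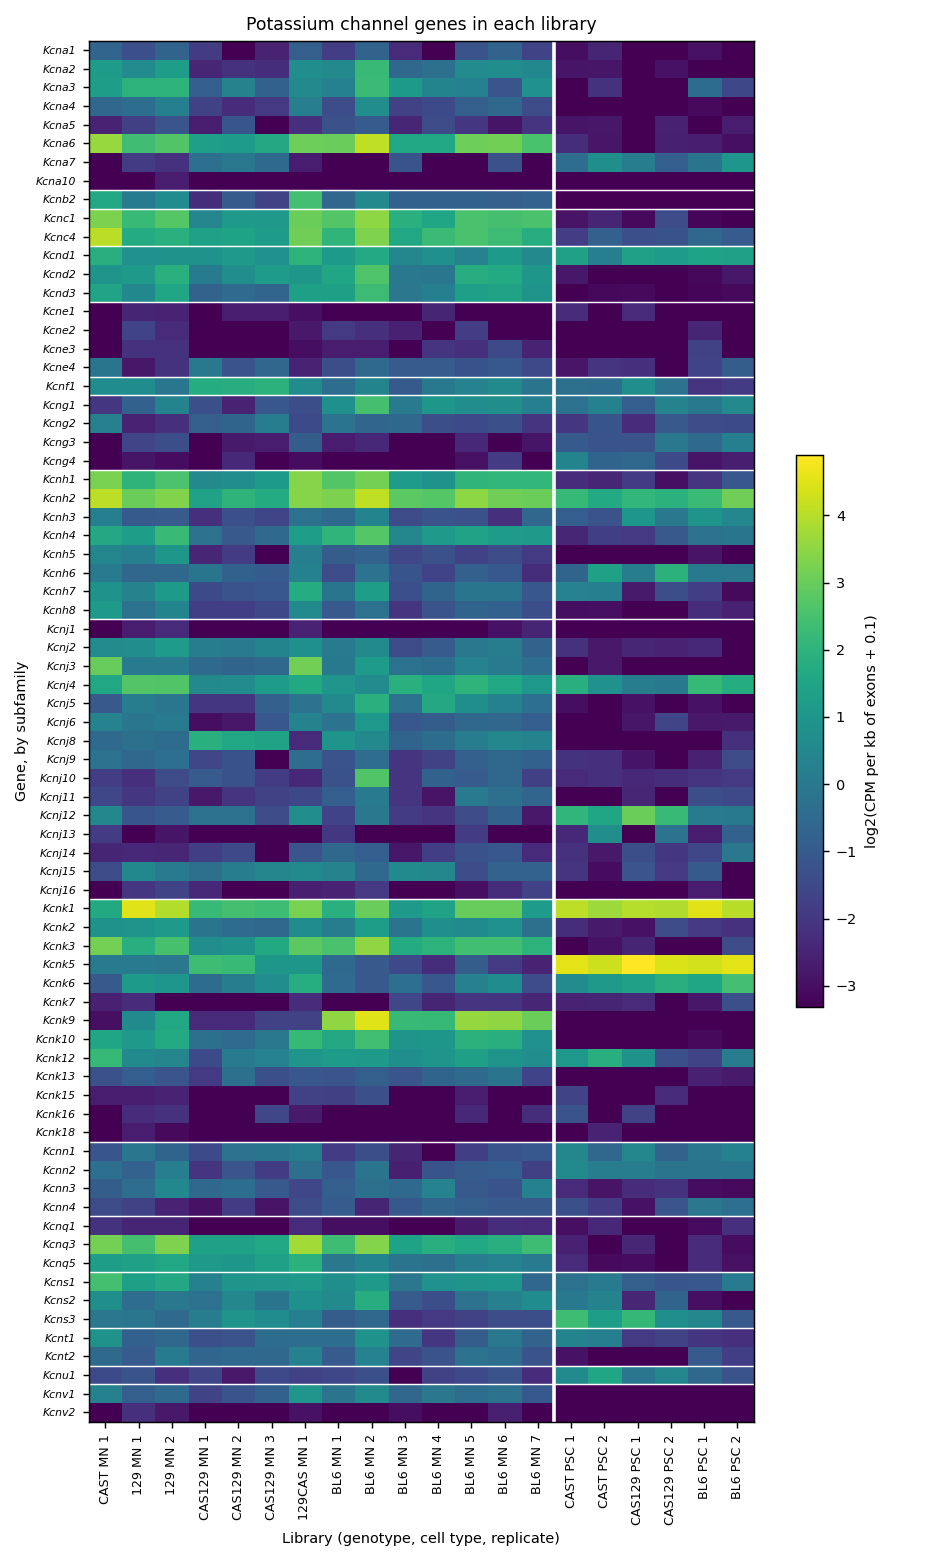
Level of 74 genes (rows, grouped by subfamily) in each of 20 libraries (columns, MN left and PSC right), as log2 of CPM per kb of exons plus 0.1. Kcnk5 and Kcnk1 are the brightest rows in PSC, most Kcna rows and the Kcnc1 and Kcnq3 rows are brighter in MN, and Kcnk9 is bright in BL6 MN.

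The leak channels moved in both directions. In PSC, 2 genes held the largest shares of the summed per-kb level of all members: Kcnk5 (TASK-2, a pH-sensitive leak channel) with 28.1% and Kcnk1 (TWIK-1) with 20.3%. The Kcnk sum was lower in MN, at 26.4 ± 11.4 CPM per kb (SD, n = 14), than in PSC, at 44.3 ± 4.34 CPM per kb (SD, n = 6). Of 9 Kcnk genes tested, 5 were higher in MN, 3 were lower and Kcnk12 was not called, against 36.1% higher and 38.5% lower of all genes.

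Kcnk5 (chr14:20140057-20181809, minus strand) had 3.25 CPM in CAST MN, 17, 15.9 and 6.54 CPM in CAS129 MN and a median of 0.853 CPM in BL6 MN (0.264 to 2.05). In PSC it had 80.3 and 65.7 CPM in CAST, 101 and 73.5 CPM in CAS129 and 68.3 and 79.3 CPM in BL6. Every PSC library was above every MN library, and within MN all CAS129 libraries were above all BL6 libraries. The log2 fold change, MN over PSC, was -4.91 (SE 0.45, adjusted p = 3.6e-08). Kcnk1 had 6.92 CPM in CAST MN, 10, 12.3 and 11 CPM in CAS129 MN and a median of 8.11 CPM in BL6 MN (4.63 to 17.9), against 28.6 to 51.6 CPM over the 6 PSC libraries. These groups did not overlap, and the log2 fold change was -2.05 (SE 0.30, adjusted p = 7.8e-06). Kcnk6 (TWIK-2) was also lower in MN, at 3.22 ± 1.84 CPM (SD, n = 11), than in PSC, at 12.2 ± 5.51 CPM (SD, n = 6), with a log2 fold change of -2.23 (adjusted p = 1.2e-05).

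The leak channels that rose included TASK and TREK genes. Kcnk3 (TASK-1; chr5:30588170-30625271, plus strand) had 35.4 CPM in CAST MN, 6.13, 6.93 and 12.2 CPM in CAS129 MN and a median of 20.6 CPM in BL6 MN (12.8 to 45.4). In PSC it had 0 and 0.126 CPM in CAST, 0.314 and 0 CPM in CAS129 and 0 and 1.09 CPM in BL6. All MN libraries were above all PSC libraries, with a log2 fold change of 5.90 (SE 0.66, adjusted p = 3.7e-07). Kcnk10 (TREK-2, a leak channel opened by stretch and lipids; chr12:98429437-98578310, minus strand) averaged 20.6 ± 12.6 CPM in MN (SD, n = 11) and 0.024 ± 0.0587 CPM in PSC (SD, n = 6), a log2 fold change of 8.63 (SE 0.55, adjusted p = 6e-10). Kcnk2 (TREK-1) averaged 5.95 ± 2.79 CPM in MN and 0.625 ± 0.436 CPM in PSC, and Kcnk13 1.36 ± 0.638 CPM in MN and 0.0619 ± 0.0977 CPM in PSC (SD, n = 11 and 6). Their log2 fold changes were 3.04 (adjusted p = 9e-06) and 3.63 (adjusted p = 4.6e-05).

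**Figure D2:**
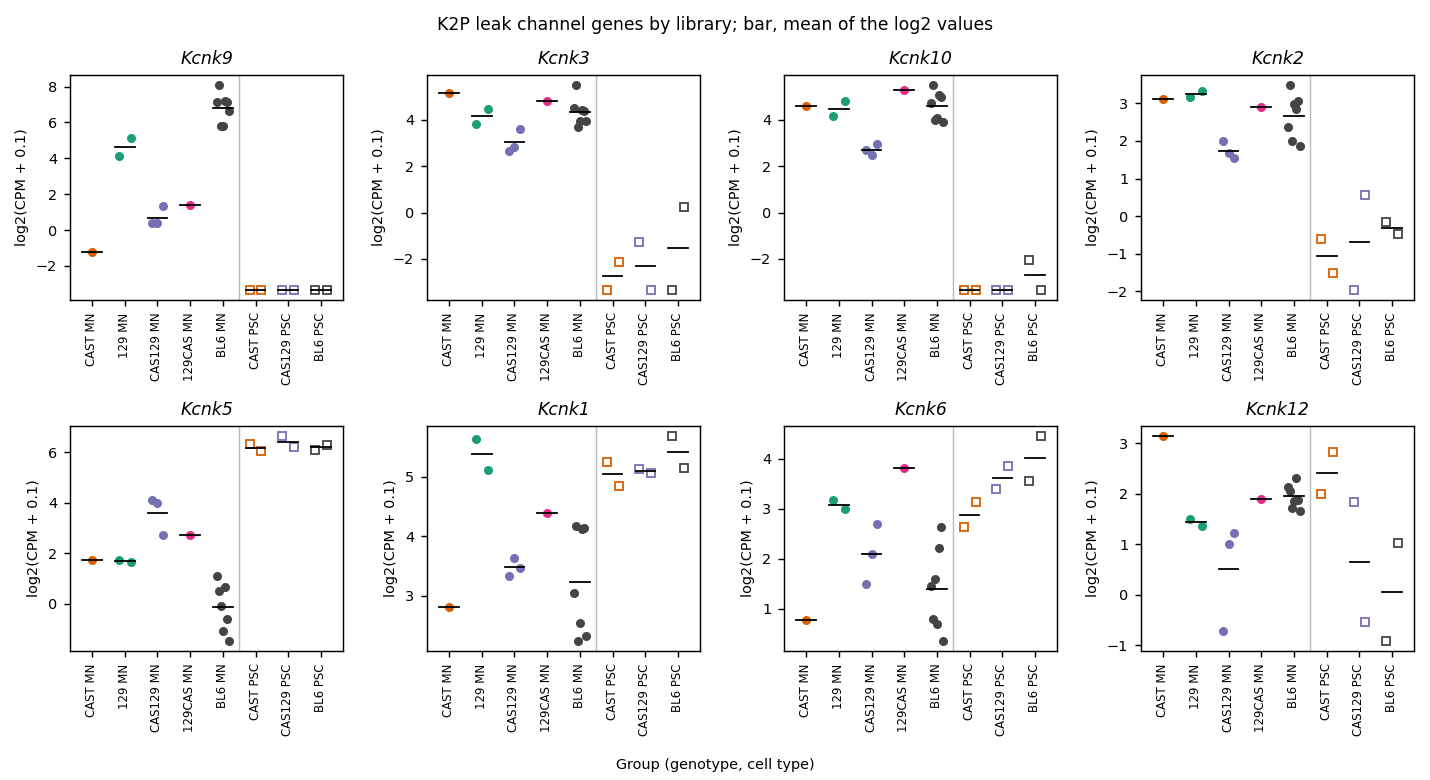
Level of 8 Kcnk genes in each library, as log2 of CPM plus 0.1, for the MN groups (filled circles, left of the grey line) and the PSC groups (open squares); bars are means of the log2 values. Kcnk9 is highest in BL6 MN and at 0 in all 6 PSC libraries, while Kcnk5 is above its MN values in all 6 PSC libraries.

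Kcnk9 (chr15:72501089-72546340, minus strand) had no count in any of the 6 PSC libraries. In MN it had 0.325 CPM in CAST (3 counts), 17.5 and 35.0 CPM in 129, 1.19, 1.21 and 2.43 CPM in CAS129, 2.56 CPM in 129CAS and a median of 140 CPM in BL6 (55.0 to 275). The 7 BL6 MN libraries were all above every other MN library, the 129 libraries came next, and the hybrid and CAST libraries were lowest. Against a floor of 3 counts over the 6 PSC libraries together (0.0543 CPM), the MN mean was at least 1540-fold higher (adjusted p = 4.4e-07). Per kb of exons, Kcnk9 ranked 1 among the 78 members in BL6 MN, 18 in 129 MN, 58 in CAS129 MN and in 129CAS MN, and 66 in CAST MN.

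Of 4 tested Kcnq genes, 3 were higher and 1 was lower in MN, against 36.1% higher and 38.5% lower of all genes. Kcnq3 and Kcnq5, subunits of M-channels, were among the higher ones. Kcnq3 had 132 CPM in CAST MN, 37.0, 37.1 and 42.4 CPM in CAS129 MN and a median of 51.7 CPM in BL6 MN (38.6 to 149), against 0 to 1.51 CPM in PSC. The groups did not overlap, and the log2 fold change was 6.40 (SE 0.58, adjusted p = 2.8e-08). Kcnq5 averaged 10.9 ± 5.03 CPM in MN and 0.347 ± 0.347 CPM in PSC (SD, n = 11 and 6; log2 fold change 4.69, adjusted p = 9.8e-08).

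In the Kcna (Kv1) family, whose low-threshold channels line axons, 5 of 6 tested genes rose and Kcna7 fell. For all genes the shares were 36.1% higher and 38.5% lower. The Kcna sum averaged 11.2 ± 6.69 CPM per kb in MN (SD, n = 14) and 1.37 ± 0.636 CPM per kb in PSC (SD, n = 6). Kcna6 (Kv1.6) had 72.6 CPM in CAST MN, 14.3, 12.8 and 17.9 CPM in CAS129 MN and a median of 47.4 CPM in BL6 MN (17.6 to 103), against at most 0.667 CPM in any PSC library. Kcna2 (Kv1.2; chr3:107101146-107115005, plus strand) had 26.8 CPM in CAST MN, 1.02, 1.56 and 1.31 CPM in CAS129 MN and a median of 16.2 CPM in BL6 MN (6.82 to 55.1), against at most 0.502 CPM in any PSC library. For both genes every MN library was above every PSC library, and for Kcna2 the CAS129 MN libraries lay far below the others. The log2 fold changes were 7.07 for Kcna6 (SE 0.55, adjusted p = 4.7e-09) and 6.49 for Kcna2 (SE 0.87, adjusted p = 3.1e-06). Kcna3 averaged 2.90 ± 2.38 CPM in MN and 0.323 ± 0.479 CPM in PSC (log2 fold change 2.87, adjusted p = 0.0011), and Kcna7, which is known from muscle, 0.559 ± 0.724 CPM in MN and 2.33 ± 1.23 CPM in PSC (log2 fold change -2.87, adjusted p = 0.0056).

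Kcnb, Kcnc and Kcnd genes encode channels of delayed rectifier, fast-spiking and A-type currents. Kcnb2 (Kv2.2) had 43.3 CPM in CAST MN, 1.70, 6.07 and 3.18 CPM in CAS129 MN and a median of 7.43 CPM in BL6 MN (6.91 to 20.7), and no count in any PSC library. The MN mean was at least 201-fold higher than the floor of 3 counts over the 6 PSC libraries (adjusted p = 8.1e-08). Kcnc1 (Kv3.1; chr7:46396497-46438704, plus strand), which lets neurons fire fast, had 90.2 CPM in CAST MN, 11.8, 19.2 and 19.3 CPM in CAS129 MN and a median of 53.8 CPM in BL6 MN (26.8 to 106), against 0 to 2.55 CPM in PSC. The groups did not overlap, and the log2 fold change was 6.44 (SE 0.77, adjusted p = 8.3e-07). Kcnc4 rose with a log2 fold change of 3.62 (adjusted p = 4e-07), Kcnd2 with 6.47 (adjusted p = 1.3e-07) and Kcnd3 with 7.36 (adjusted p = 6.9e-09), while Kcnd1 (10.5 ± 3.89 CPM in MN and 11.8 ± 3.11 CPM in PSC, adjusted p = 0.34) was not called.

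The silent subunits, which form no channel alone and modify Kcnb channels, moved in both directions. Of 9 tested Kcnf, Kcng, Kcns and Kcnv genes, 5 rose, 3 fell and Kcng1 was not called. Among all genes 36.1% rose and 38.5% fell. Kcnv1 averaged 3.15 ± 1.61 CPM in MN (SD, n = 11) and had no count in PSC, so it was at least 58-fold higher (adjusted p = 3.8e-07). Kcnf1 averaged 8.06 ± 5.80 CPM in MN and 3.27 ± 2.55 CPM in PSC (log2 fold change 1.69, adjusted p = 2.4e-04), and Kcns2 6.75 ± 4.68 CPM in MN and 2.53 ± 2.81 CPM in PSC (log2 fold change 2.59, adjusted p = 0.014). Kcns3 fell, at 2.08 ± 1.80 CPM in MN and 7.89 ± 5.74 CPM in PSC (log2 fold change -1.59, adjusted p = 0.0012). Kcng3 fell by 4.34 on the log2 scale (adjusted p = 2.3e-06) and Kcng4 by 2.84 (adjusted p = 0.018). Among the accessory Kcne genes only Kcne4 was high enough to test; it averaged 1.28 ± 0.574 CPM in MN and 0.424 ± 0.416 CPM in PSC (log2 fold change 1.33, adjusted p = 0.029).

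Of 8 Kcnh genes, 5 rose and 2 fell, against 36.1% higher and 38.5% lower of all genes. Kcnh1 (EAG1) averaged 30.8 ± 21.2 CPM in MN and 1.10 ± 0.871 CPM in PSC (SD, n = 11 and 6; log2 fold change 4.53, SE 0.51, adjusted p = 3.5e-07), with no overlap. Kcnh4 rose with a log2 fold change of 2.07 (adjusted p = 7.9e-04) and Kcnh7 with 1.63 (adjusted p = 0.03). Kcnh2 (ERG1, known for the heart's repolarising current) was not called, at 41.7 ± 23.8 CPM in MN and 23.3 ± 9.27 CPM in PSC (log2 fold change 0.47, SE 0.31, adjusted p = 0.17). Without the 5 CAS129 libraries, an alternative chosen after seeing the data, its log2 fold change was 0.94 (adjusted p = 0.021).

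Among 13 tested inward rectifiers, 7 rose, 2 fell and 4 were not called. Of all genes tested, 74.6% were called, 36.1% higher and 38.5% lower. Kcnj3 (GIRK1, opened by G protein-coupled receptors; chr2:55435970-55598145, plus strand) had 41.0 CPM in CAST MN, 3.24, 2.77 and 2.99 CPM in CAS129 MN and a median of 4.69 CPM in BL6 MN (3.44 to 11.3), against 0.251 CPM in 1 CAST PSC library and 0 in the 5 other PSC libraries. Every MN library was above every PSC library, and CAST MN stood far above the others (log2 fold change 8.20, SE 0.59, adjusted p = 2.3e-09). The GIRK partners Kcnj5, Kcnj6 and Kcnj9 rose as well, with log2 fold changes of 5.50, 3.06 and 1.78 (adjusted p = 9.1e-06, 0.0081 and 0.011). Kcnj12 (Kir2.2) fell, at 1.32 ± 1.08 CPM in MN and 9.89 ± 7.58 CPM in PSC (log2 fold change -2.33, adjusted p = 3.6e-04), and Kcnj13 fell at the lower edge of detection, at 0.0567 ± 0.0972 CPM in MN and 0.632 ± 0.775 CPM in PSC (adjusted p = 0.013). Kcnj15 averaged 5.17 ± 2.64 CPM in MN and 1.12 ± 1.04 CPM in PSC (adjusted p = 0.015).

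The SK channels, which generate the afterhyperpolarisation of motor neurons, moved apart: Kcnn3 (SK3) averaged 6.53 ± 2.95 CPM in MN and 0.703 ± 0.517 CPM in PSC (log2 fold change 3.22, SE 0.54, adjusted p = 4.1e-05), while Kcnn1 (log2 fold change -1.67, adjusted p = 0.005) and Kcnn2 (log2 fold change -1.46, adjusted p = 0.0027) fell. Kcnt1 (log2 fold change 1.5, adjusted p = 0.011) and Kcnt2 (log2 fold change 2.24, adjusted p = 0.0057), which encode sodium-activated channels, rose. Kcnu1, known from sperm, fell, at 0.752 ± 0.392 CPM in MN and 4.48 ± 3.27 CPM in PSC (log2 fold change -2.12, adjusted p = 0.0016).

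**Figure D3:**
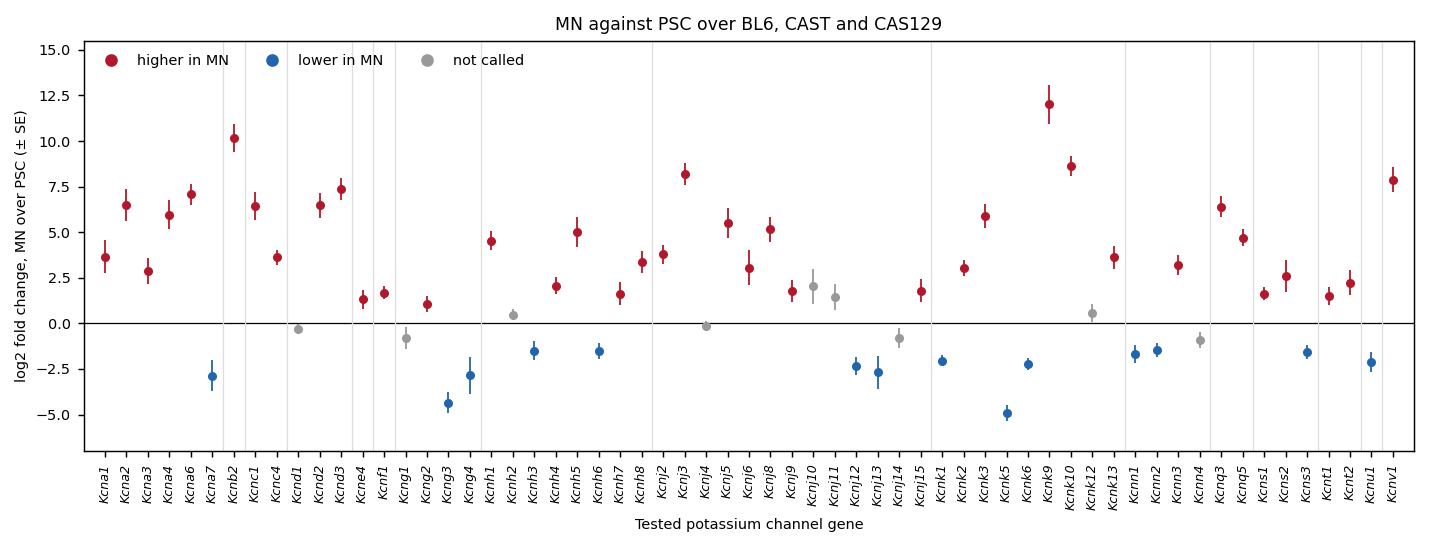
Log2 fold change of MN over PSC for 61 tested genes, with SE bars, ordered by subfamily; red marks genes called higher in MN, blue lower and grey not called. The values run from -4.91 for Kcnk5 to 12.01 for Kcnk9, whose fitted value depends on PSC counts of 0.

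Partner genes that are no members were counted from a list of 32 (large-conductance channel, Kv1 beta and Kv4 partner subunits, KATP receptors, clustering and anchoring proteins and regulators). Of 31 tested, 23 were higher and 5 lower in MN, against 36.1% higher and 38.5% lower of all genes. Kcnma1, the large-conductance calcium-activated channel, averaged 46.6 ± 35.0 CPM in MN and 0.531 ± 0.474 CPM in PSC (log2 fold change 6.47, adjusted p = 8.8e-10). The Kv4 partners Dpp10 and Kcnip1 had no count in PSC and averaged 27.6 ± 18.6 and 24.3 ± 18.7 CPM in MN. Rest, the repressor of neuronal genes in other cells, averaged 114 ± 70.7 CPM in MN and 407 ± 34.0 CPM in PSC (log2 fold change -2.07, adjusted p = 3.1e-07).

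Within single genotypes, 38 of the 65 genes were higher and 10 lower in BL6 MN than in BL6 PSC (73.8% called, against 70.2% of all genes, of which 36% higher and 34.2% lower). In CAS129, 28 were higher and 11 lower (60% called, against 54.4% of all genes, of which 30.4% higher and 23.9% lower). In CAST, 35 were higher and 7 lower (64.6% called, against 56% of all genes, of which 30.3% higher and 25.7% lower). CAST MN was 1 library, assumed to vary like the other groups, and the 3 comparisons come from the same fit. In each of the 3 genotypes 24 genes were called higher (against 20.2% of all genes), among them Kcnq3, Kcnq5, Kcna6, Kcnb2, Kcnc1, Kcnj3, Kcnk3 and Kcnk10, and 4 were called lower (against 16.3%): Kcng3, Kcnk1, Kcnk5 and Kcnk6. Kcnk9 was at least 1160-fold higher in BL6 MN (adjusted p = 5.5e-07) and at least 6.17-fold higher in CAS129 MN (adjusted p = 0.03), in each case against 3 counts over the 2 PSC libraries of that genotype. In CAST, where MN held 3 counts and PSC 0, no fold is given. The call in CAS129 was lost without CAS129 MN replicate 3 or either CAS129 PSC replicate.

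A term for the difference in MN-over-PSC change, CAS129 minus BL6, was called for 6 of 65 genes (9.23%, against 18.2% of all genes), 3 positive (against 13.7% of all genes) and 3 negative (against 4.53%). The difference was positive for Kcnk5 (3.43, SE 0.62, adjusted p = 0.0013), Kcnq5 (3.63, SE 1.06, adjusted p = 0.025) and Kcnt2 (7.75, SE 1.97, adjusted p = 0.013), all on the log2 scale. It was negative for Kcnc1 (-6.47, SE 1.49, adjusted p = 0.0068), Kcnn3 (-2.95, SE 0.97, adjusted p = 0.043) and Kcns2 (-4.70, SE 1.56, adjusted p = 0.046). Kcnk5 fell less in CAS129, at 13.2 ± 5.77 CPM in MN and 87.3 ± 19.6 CPM in PSC, than in BL6, at 0.987 ± 0.656 CPM in MN and 73.8 ± 7.75 CPM in PSC. Summed pluripotency markers stood at 320 to 916 CPM in CAS129 MN and 7.19 to 22.9 CPM in BL6 MN. Their part in the Kcnk5 difference was not tested. Kcnq5 rose more in CAS129, at 16.7 ± 2.22 CPM in MN and 0.0784 ± 0.111 CPM in PSC, than in BL6, at 7.39 ± 1.38 CPM in MN and 0.512 ± 0.395 CPM in PSC. Its CAS129 PSC mean is below the floor of 3 counts over the 2 libraries (0.261 CPM), so the size of this difference is uncertain. Kcnt2 turns on PSC, where it had 0 counts in CAS129 and 2.81 and 1.32 CPM in BL6. So does Kcnc1, with 0.157 and 2.55 CPM in CAS129 PSC and 0.0719 and 0 CPM in BL6 PSC, and its call was lost without CAS129 PSC replicate 2 (-3.76, adjusted p = 0.46). Kcns2 and Kcnn3 were low in PSC as well, with 0.471 and 2.94 CPM for Kcns2 and 1.1 and 1.37 CPM for Kcnn3 in CAS129, against 0.144 and 0 CPM and 0.216 and 0.155 CPM in BL6. Only 2 genes were called without CAS129 PSC replicate 2 and 3 without CAS129 MN replicate 1 or 2, and shares of all genes are not given for these fits.

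In PSC, where the channel repertoire is small, 36 genes were tested between genotypes. Against BL6, 4 genes were higher and none lower in CAST (11.1% called, against 10.5% of all genes, of which 5.74% higher and 4.81% lower). In CAS129, 4 were higher and 3 lower (19.4% called, against 25.8% of all genes, of which 8.72% higher and 17% lower). At an unadjusted p under 0.05 there were 13 members in CAST and 9 in CAS129, and both comparisons share the BL6 libraries. Kcnj12 had 11.3 and 7.66 CPM in CAST PSC and 22.7 and 12.5 CPM in CAS129 PSC, against 2.59 and 2.49 CPM in BL6 PSC. The log2 fold changes over BL6 were 1.93 for CAST (SE 0.48, adjusted p = 0.039) and 2.84 for CAS129 (SE 0.50, adjusted p = 0.0039), and no library overlapped BL6. Kcns2 had 5.00 and 6.65 CPM in CAST PSC and 0.471 and 2.94 CPM in CAS129 PSC, against 0.144 and 0 CPM in BL6 PSC (adjusted p = 0.017 for CAST and 0.036 for CAS129). Kcng4 was also higher in CAST PSC (3.28 ± 1.80 CPM, adjusted p = 0.027) and in CAS129 PSC (1.59 ± 0.860 CPM, adjusted p = 0.043) than in BL6 PSC (0.188 ± 0.063 CPM; SD, n = 2 each). Kcnt1 had 1.57 and 1.96 CPM in CAS129 PSC and 11.4 and 10 CPM in CAST PSC, against 1.29 and 1.09 CPM in BL6 PSC. It was higher in CAST than in BL6 (log2 fold change 3.19, SE 0.55, adjusted p = 0.0098), and it was the 1 gene of 36 called between CAS129 and CAST (2.78% called, against 14% of all genes, of which 2.27% higher and 11.7% lower; log2 fold change -2.59, SE 0.55, adjusted p = 0.015).

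In CAS129 PSC, Kcnf1 was higher than in BL6 PSC, at 5.70 ± 2.80 CPM in CAS129 and 0.751 ± 0.146 CPM in BL6 (adjusted p = 0.014), and Kcnj4 and Kcnt2 were lower (adjusted p = 0.041 and 0.03). The leak channels that dominate PSC, Kcnk5, Kcnk1 and Kcnk6, were not called between any of these genotypes. With 2 libraries a group these calls were fragile: 0 genes remained called between CAST and BL6 without BL6 PSC replicate 2 or either CAST replicate, 2 to 4 between CAS129 and BL6 on leaving out any 1 of the 6 libraries, and 0 between CAS129 and CAST on leaving out any 1 of their 4 libraries. How many of all genes were called in those fits is not given here.

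In MN, Kcnk9 was lower than in BL6 in each genotype tested, with 62 members tested in all. Levels of the single libraries are given above. The log2 fold change over BL6 MN (130 ± 74.9 CPM; SD, n = 7) was -8.68 in CAST (SE 1.35, adjusted p = 0.00094), -6.44 in CAS129 (SE 0.68, adjusted p = 3.6e-06) and -2.45 in 129 (SE 0.57, adjusted p = 0.0045). The 3 counts of CAST MN were 0.249% of the BL6 MN mean, with an exact Poisson 95% interval of 0.0514% to 0.729% that covers counting error only. The call in 129 was lost without 129 MN replicate 1 (log2 fold change -2.05, adjusted p = 0.072). When libraries were scaled to the summed counts of 6 pan-neuronal markers in place of all genes, an alternative chosen after seeing the data, the log2 fold changes were -9.48 in CAST, -5.01 in CAS129 and -2.37 in 129, all called. Markers of other spinal neurons varied between the same libraries: the 7 listed summed to 134 CPM in CAST MN, 60.8 and 80.8 CPM in 129 MN, 25.7 to 37.3 CPM in CAS129 MN and 122 CPM in 129CAS MN, against 56.0 to 520 CPM in BL6 MN, and none was at 0 in every library of a group. Slc32a1, the transporter that loads GABA and glycine into vesicles, averaged 8.98 CPM in CAST MN, 1.48 CPM in 129 MN, 2.91 CPM in CAS129 MN and 1.32 CPM in 129CAS MN, against 51 ± 34 CPM in BL6 MN (SD, n = 7). Gad1, an enzyme of GABA synthesis, had 11.3 CPM in CAST MN, 2.71 CPM in 129 MN, 7.2 CPM in CAS129 MN and 8.12 CPM in 129CAS MN, against 64.5 ± 39.1 CPM in BL6 MN, and Slc6a5 and Pax2 were also highest in BL6 MN. Slc17a6, the glutamate transporter of excitatory neurons, had 63.8 CPM in CAST MN and 45.6 CPM in BL6 MN, and Gad2 34.1 CPM in CAST MN and 21.8 CPM in BL6 MN. The part of these cells in the Kcnk9 differences was not tested.

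The TASK-1 gene Kcnk3 did not follow Kcnk9 in CAST: it had 35.4 CPM in CAST MN and 21.9 ± 11 CPM in BL6 MN (SD, n = 7), and was not called. In 129 MN it was not called either (log2 fold change -0.41). In CAS129 MN Kcnk3 was called lower with TMM scaling (-1.49) and not called with pan-neuronal scaling (-0.12). Of 8 other tested genes within 1 Mb of Kcnk9, 2 were called in CAST, 1 in CAS129 and 2 in 129 (against 12.3%, 59.5% and 36.4% of all genes). Peg13, an imprinted noncoding RNA of the same cluster that lies within the span of Trappc9, was higher in CAST MN, at 620 CPM, than in BL6 MN, at 238 ± 101 CPM (log2 fold change 1.31, SE 0.38, adjusted p = 0.04). Trappc9 was lower, at 33.4 CPM in CAST MN and 52.8 ± 6.06 CPM in BL6 MN (log2 fold change -0.73, SE 0.18, adjusted p = 0.021). In CAS129 MN, Fam135b was lower, at 2.73 ± 1.34 CPM in CAS129 and 26.3 ± 11.8 CPM in BL6 (log2 fold change -3.37, adjusted p = 2.5e-05), and Peg13 was not called (162 ± 21.4 CPM in CAS129, adjusted p = 0.062).

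Between CAST MN and BL6 MN, 7 of 62 genes were higher and 2 lower in CAST (14.5% called, against 12.3% of all genes, of which 5.76% higher and 6.58% lower). Kcnj3 had 41.0 CPM in CAST MN and a median of 4.69 CPM in BL6 MN (3.44 to 11.3), a log2 fold change of 2.85 (SE 0.38, adjusted p = 0.00032). Kcnb2 had 43.3 CPM in CAST MN and a median of 7.43 CPM in BL6 MN (6.91 to 20.7), a log2 fold change of 2.13 (SE 0.47, adjusted p = 0.011). For both genes the CAST library lay above all 7 BL6 libraries. Kcnc4 (60.5 CPM in CAST MN, 18.5 ± 8.33 CPM in BL6 MN, adjusted p = 0.015), Kcnq5 (17.5 CPM in CAST MN, 7.39 ± 1.38 CPM in BL6 MN, adjusted p = 0.0084) and Kcnh8 (9.20 CPM in CAST MN, 1.89 ± 0.885 CPM in BL6 MN, adjusted p = 0.012) were also higher. Kcng1 was lower, at 0.649 CPM in CAST MN and 9.15 ± 7.04 CPM in BL6 MN (adjusted p = 0.049). The 6 pan-neuronal markers other than Map2 summed to 2180 CPM in CAST MN and 644 to 2090 CPM in BL6 MN. With scaling to these markers 3 genes were called, Kcnk9 and Kcng1 lower and Kcnj3 higher (against 4.99% of all genes), and the median of all genes moved to -1.12 on the log2 scale.

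The reciprocally named hybrid gave high values for the same pair of genes. Kcnb2 had 81.0 CPM in the 129CAS MN library, 43.3 CPM in CAST MN and 18.9 CPM on average in 129 MN, but 1.70, 6.07 and 3.18 CPM in CAS129 MN. Kcnj3 had 45.5 CPM in 129CAS MN and 41.0 CPM in CAST MN, but 4.78 and 4.76 CPM in 129 MN and 3.24, 2.77 and 2.99 CPM in CAS129 MN. With 1 library of 129CAS MN, these differences between the hybrids were not tested. The 6 pan-neuronal markers other than Map2 summed to 1810 CPM in 129CAS MN and 400 to 509 CPM in CAS129 MN.

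**Figure D4:**
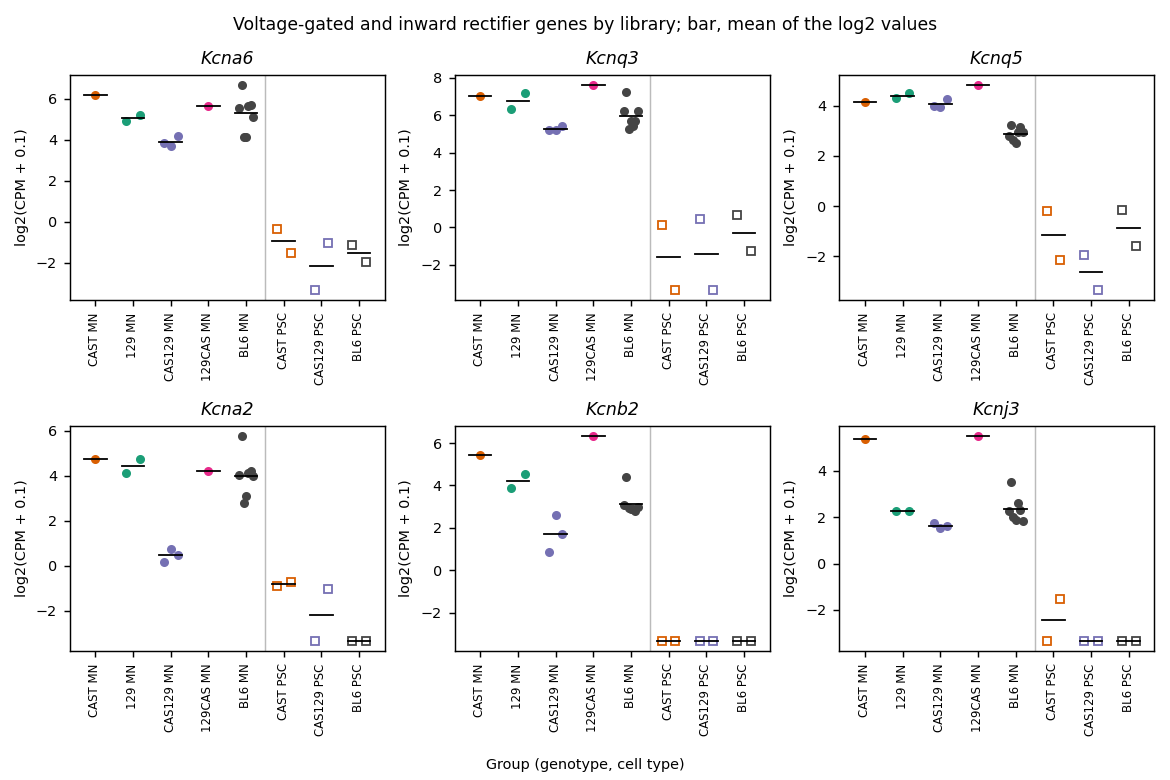
Level of Kcna6, Kcnq3, Kcnq5, Kcna2, Kcnb2 and Kcnj3 in each library, as log2 of CPM plus 0.1, for the MN groups (filled circles, left) and the PSC groups (open squares, right); bars are means of the log2 values. Kcnb2 and Kcnj3 are highest in 129CAS and CAST MN, and Kcna2 in the 3 CAS129 MN libraries (1.02 to 1.56 CPM) is far below the other MN libraries.

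In 129 MN, 7 of 62 genes were higher and 3 lower than in BL6 MN (16.1% called, against 36.4% of all genes, of which 18.3% higher and 18.1% lower). Kcnq5 had 19.4 and 22.6 CPM in 129 MN and a median of 7.53 CPM in BL6 MN (5.57 to 9.37), with no overlap (log2 fold change 1.37, SE 0.19, adjusted p = 9.1e-05). Kcnk1 had 49.8 and 34.6 CPM in 129 MN, above all BL6 MN libraries (log2 fold change 1.82, adjusted p = 0.006). Its level there was close to that of PSC (28.6 to 51.6 CPM). Kcnk5 and Kcnk6 were higher too (log2 fold changes 1.48 and 1.36, adjusted p = 0.038 and 0.04), as were Kcnj4 (1.11, adjusted p = 0.017) and Kcnh5 (2.15, adjusted p = 0.0021), and Kcng2 (adjusted p = 0.014) and Kcne4 (adjusted p = 0.0074) were lower. With scaling to the 6 pan-neuronal markers, Kcnk6 (1.36, adjusted p = 0.093) and Kcnj4 (0.96, adjusted p = 0.25) were not called. Summed epithelial markers stood at 916 to 1380 CPM in 129 MN and 82.8 to 383 CPM in BL6 MN, and their part in these differences was not tested. Without 129 MN replicate 1 there were 3 calls, without replicate 2 there were 5, and without BL6 MN replicate 2 there were 20. Shares of all genes called in these 3 fits are not given, so the counts do not set the members apart from other genes.

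CAS129 MN differed most from BL6 MN: 6 of 62 genes were higher and 27 lower (53.2%, against 59.5% of all genes), with 43.5% lower against 32.5% of all genes and 9.68% higher against 27% of all genes. The median log2 fold change was -1.09 for the 62 genes and -0.08 for all genes. The CAS129 MN libraries also held less of the neuronal markers and more of the stem cell markers: 6 pan-neuronal markers summed to 400 to 509 CPM in CAS129 and 644 to 2090 CPM in BL6 (Map2 left out, since it is listed at 0 in the hybrids), motor neuron markers 218 to 301 CPM in CAS129 and 459 to 1480 CPM in BL6, and pluripotency markers 320 to 916 CPM in CAS129 and 7.19 to 22.9 CPM in BL6. Under scaling to the 6 pan-neuronal markers, 20 genes were higher and 8 lower (against 57.1% and 11.2% of all genes), and the median of all genes moved to 1.12 on the log2 scale. Among those lower under both scalings were Kcnk9, Kcna2, Kcng1, Kcnj5, Kcnh4, Kcnk10 and Kcnd3, and the 6 higher under both were Kcnk5, Kcna7, Kcns3, Kcnf1, Kcnj8 and Kcnq5. Of those lower with TMM scaling, 19 were not called under it, among them Kcnq3, Kcnc1, Kcnh2, Kcnk3 and Kcna6.

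Kcna2 had the largest fall after Kcnk9, at 1.30 ± 0.269 CPM in CAS129 MN (SD, n = 3) and 19.7 ± 16.2 CPM in BL6 MN (SD, n = 7), a log2 fold change of -4.02 with TMM scaling (SE 0.71, adjusted p = 0.00033) and -2.51 with pan-neuronal scaling (adjusted p = 5.5e-05). Kcng1 followed, at 1.13 ± 0.697 CPM in CAS129 MN and 9.15 ± 7.04 CPM in BL6 MN (log2 fold change -3.11 with TMM scaling, adjusted p = 0.0017). Kcnk10 had 6.30, 5.55 and 7.66 CPM in CAS129 MN and a median of 26.3 CPM in BL6 MN (14.7 to 45.3; log2 fold change -2.11, adjusted p = 0.00033), with no overlap.

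Of the genes that were higher in CAS129 MN, Kcnk5, Kcns3 and Kcna7 were among those lower in MN than in PSC. Kcnk5 averaged 13.2 ± 5.77 CPM in CAS129 MN and 0.987 ± 0.656 CPM in BL6 MN (log2 fold change 3.59, SE 0.46, adjusted p = 2e-05), and Kcns3 4.54 ± 1.25 CPM in CAS129 MN and 0.932 ± 0.515 CPM in BL6 MN (log2 fold change 2.16, SE 0.41, adjusted p = 0.00059). The part of the stem cell markers given above in these 3 rises was not tested. Kcnf1, a silent subunit, had 16.0, 16.1 and 18.1 CPM in CAS129 MN and a median of 4.30 CPM in BL6 MN (1.95 to 6.69; log2 fold change 1.79, SE 0.31, adjusted p = 0.00026). Kcnq5 had 15.8, 15.1 and 19.3 CPM in CAS129 MN and a median of 7.53 CPM in BL6 MN (5.57 to 9.37; log2 fold change 1.07, SE 0.17, adjusted p = 0.00016). Kcnj8 (Kir6.1, the pore of vascular KATP channels) had 9.20, 7.28 and 6.54 CPM in CAS129 MN and a median of 3.04 CPM in BL6 MN (1.34 to 4.59; log2 fold change 1.31, adjusted p = 0.0043). None of these 3 overlapped between the genotypes. Smooth and heart muscle markers summed to 16100 to 18500 CPM in CAS129 MN and 5200 to 15400 CPM in BL6 MN. Of this list Acta2, Cnn1 and Myh11 averaged higher in CAS129 MN, with Acta2 at 11900 CPM against 5050 CPM in BL6 MN. Tagln (2120 against 2620 CPM) and Des (328 against 817 CPM) averaged lower. The heart muscle markers Actc1, Tnnt2, Myh6 and Myh7 averaged at most 2.65 CPM in either group. The part of these markers was not tested.

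**Figure D5:**
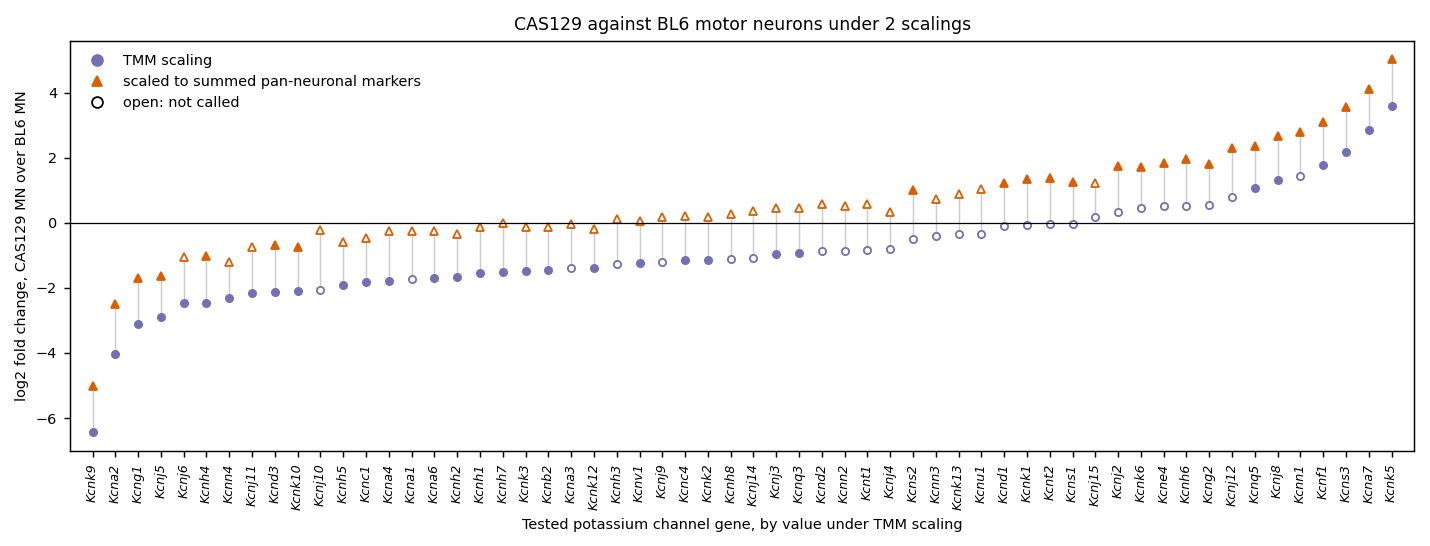
Log2 fold change of CAS129 MN over BL6 MN for 58 tested genes, with TMM scaling (purple circles) and with scaling to 6 pan-neuronal markers (orange triangles); filled symbols are called. The whole set lies higher with pan-neuronal scaling, and Kcnk9 (-6.44 and -5.01) and Kcnk5 (3.59 and 5.02) are at the ends under both.

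Of the 32 partner genes, 2 were higher and 19 lower in CAS129 MN than in BL6 MN under TMM scaling, against 27% and 32.5% of all genes. With scaling to the 6 pan-neuronal markers 4 were higher and 6 lower, against 57.1% and 11.2% of all genes, and the 6 were among the 19. Kcnma1 averaged 9.74 ± 2.20 CPM in CAS129 MN and 60.3 ± 33.2 CPM in BL6 MN (log2 fold change -2.73, adjusted p = 0.00012), and Rest, which was higher, 215 ± 52.3 CPM in CAS129 MN and 79.2 ± 19.1 CPM in BL6 MN (log2 fold change 1.33, adjusted p = 0.00019). The 19 include the anchoring genes Ank2 and Ank3, which are listed at 0 in all 3 CAS129 MN libraries.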

How the data were processed

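The deposited values are raw read counts for each gene, left unnormalised by the authors. Per the submitters' processing notes, STAR and the build GRCm38 (mm10) were used for these libraries; no source used here gives the counting program, annotation or strand setting. Per the labels' protocols, messenger RNA was captured on oligo-dT beads and copied from random hexamers. Of the table's count columns, 20 were matched to samples by title and 8 were not used; 7 other samples were not analysed here. Of 27071 identifiers, 27031 were matched to GENCODE M21 (GRCm38), which gave symbols, positions and exon lengths.

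Tests were run on all genes with edgeR 4.0.16 in R 4.3.3 (TMM scaling, glmQLFit and glmQLFTest, a minimum of 1 CPM in 2 or more of the libraries fitted, 2-sided, Benjamini-Hochberg adjustment over all genes of the fit, threshold 0.05). MN and PSC were compared over 17 libraries with genotype as a term; single genotypes and the difference between CAS129 and BL6 came from 1 fit of 20 libraries in 8 groups; genotypes were compared within 6 PSC and within 14 MN libraries, 11 comparisons in all. SE is the log2 fold change over the square root of F. The code was checked on simulated counts. Alternatives were RLE and upper-quartile scaling, no filter, DESeq2 1.42.0, a replicate block, leaving out each library, and fitting only the groups compared. Named genes are Kcnk9 and, in MN against PSC, up to 3 called members of each subfamily with the highest mean CPM, the 5 largest rises and 5 largest falls and the highest member not called; in other comparisons they are up to 5 called members by mean CPM and the 3 largest rises and falls, not all of which are printed; others named for context were chosen after their values were seen. The members and lists were chosen with earlier results of these data known. Whether replicates were grown separately is not stated, so a p-value reflects just the variation among these libraries, possibly only technical. No replicate pair looked like 1 library deposited again: chi-square over its degrees of freedom was 3.02 or more in all 28 pairs. Within BL6 MN, replicates 5 and 6 (3.02) and replicates 3 and 4 (9.43) were closest, against 15.6 to 128 in the other pairs. The 7 BL6 MN libraries may therefore not be equally independent. The CAS129 MN pairs stood at 3.49, 7.71 and 8.08, also low, so the same doubt holds for the CAS129 MN libraries. Some members are not reported here by name; counts and sums over the members include them.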

Additional observations from a re-analysis of the deposited data

Results flagged for a closer look

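Of 43 gene levels tested in the 7 BL6 MN libraries, 15 had a library set apart from the others by Dixon's criterion, which chance does for about 1 in 20; these levels are not independent, since 14 of the 15 are high values of the same library, BL6 MN replicate 2. Its Kcna, Kcnb and Kcnc genes set apart were Kcna2 at 55.1 CPM (next highest library 18.4), Kcna3 at 9.06 CPM (4.02), Kcna6 at 103 CPM (51.8), Kcnb2 at 20.7 CPM (8.4), Kcnc1 at 106 CPM (60.2) and Kcnc4 at 35.6 CPM (21). It also stood apart for Kcng1 at 24.7 CPM (8.73), Kcnh2 at 83.2 CPM (53.6), Kcnh7 at 34.5 CPM (12.5), Kcnq3 at 149 CPM (73.2) and Kcns2 at 18.8 CPM (8.33). The rest were Kcnj3 at 11.3 CPM (6.03), Kcnj6 at 15.2 CPM (5.86) and Kcnk9 at 275 CPM (146). Summed pan-neuronal markers other than Map2 were also highest there, at 2090 CPM against 644 to 1200 CPM in the other BL6 MN libraries. The remaining level was Kcng4 in BL6 MN replicate 6, at 0.669 CPM against 0.106 CPM in the next library.

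For 6 genes the MN-over-PSC change was not the same in CAS129 as in BL6, by a test of the interaction term. On the log2 scale the difference, CAS129 minus BL6, was -6.47 for Kcnc1, 3.43 for Kcnk5, -2.95 for Kcnn3, 3.63 for Kcnq5, -4.70 for Kcns2 and 7.75 for Kcnt2. The values of Kcnc1, Kcnn3, Kcnq5, Kcns2 and Kcnt2 rest on PSC libraries with few or no counts. For Kcnk5, the part of the higher pluripotency markers of CAS129 MN was not tested.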

How the results depend on the processing

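Of 2287 values of named genes under the other settings except those chosen after seeing the data, all kept their direction and 147 lost the threshold, 117 of them on leaving out 1 library. Shares of all genes called are not given beside the counts of members in this section. Counts of called genes that moved by over 1.5 times were as follows, and the causes were not tested. With DESeq2 the difference between CAS129 and BL6 gave 10, CAST against BL6 in PSC 8, CAS129 against CAST in PSC 2 and 129 against BL6 in MN 18. With no filter, CAST against BL6 in PSC gave 11 and CAS129 against CAST in PSC 3, which had 2 with upper-quartile scaling. With only the libraries of the groups compared, and so fewer samples, MN against PSC in CAST gave 17, CAS129 against BL6 in PSC 3, CAS129 against CAST in PSC 2 and CAST against BL6 in MN 4. With pan-neuronal scaling, chosen after seeing the data, CAST against BL6 in MN gave 3, and the called fall of Kcnq3 in CAS129 MN changed sign, to 0.45 (adjusted p = 0.16). Among other called falls there, those of Kcnj3 (to 0.45), Kcnc4 (to 0.21), Kcnk2 (to 0.19) and Kcnv1 (to 0.05) changed sign too. None of them was called under that scaling. Same-numbered libraries did not deviate together between MN and PSC (r = -0.016 to 0.057) or between BL6 and CAS129 MN (r = -0.157 to 0.05). In PSC r was 0.346 for CAST with BL6, 0.456 for CAS129 with CAST and -0.02 for CAS129 with BL6, and 2 pairs each cannot settle whether numbers pair PSC libraries. With the replicate block 51 genes were called between MN and PSC, 8 between CAST and BL6 PSC, 2 between CAS129 and CAST PSC, 3 between CAST and BL6 MN and 4 in the difference. Leaving out 1 library, calls ranged from 51 to 56 in MN against PSC, 41 to 49 in BL6, 29 to 42 in CAS129 and 35 to 45 in CAST. They ranged from 2 to 7 in the difference, 0 to 5, 2 to 4 and 0 to 2 in PSC for CAST against BL6, CAS129 against BL6 and CAS129 against CAST, and 3 to 20, 23 to 35 and 7 to 18 in MN for 129, CAS129 and CAST against BL6, the last at 18 without BL6 MN replicate 2. Without the only CAST MN library no CAST MN value exists. The CAS129 libraries, at 4.5 M to 6.29 M counts, have the highest floors: 3 counts are 0.471 to 0.588 CPM there.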
